A study of Homo sapiens with 519 samples.

Results

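The anthracyclines daunorubicin and doxorubicin were each given to 2 wells of the neuroblastoma line SK-N-BE(2), and their 4 libraries were compared with solvent wells of the same plates and with each other. The members were chosen by compound name. They make up 4 of the 519 libraries of the series and stand beside 188 other libraries of the first of its 4 experiments. SK-N-BE(2) is an established line from a neuroblastoma with amplified MYCN, a tumour of the sympathetic nervous system. The series screened compounds for their effect on the transcription of this line, and the first experiment profiled 90 of them at concentrations intended to be weakly inhibitory (the dose inhibiting growth by 20 percent). Each compound had 1 well on each of 2 plates, and RNA was taken after 24 h and read by PLATE-seq, a pooled method that counts the 3′ ends of polyadenylated transcripts.

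The groups labelled DAUNORUBICIN and DOXORUBICIN both carry the concentration 3, for which the labels give no unit. The comparison group was the 8 wells labelled DMSO, at 0.1% of the solvent, 4 on each plate. A further 4 wells carried no DMSO, and the protocol text counts 6 solvent wells to a plate where the labels give 4 and 2. Teniposide and amsacrine, at the same concentration label of 3, and dactinomycin, at 0.25, had 2 wells each and serve for comparison. All wells hold the same MYCN-amplified line, so the MYCN copy number is shared by treated and control cells. The labels do not say that the wells came from separate cultures, so the p-values measure only the spread between these libraries.

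Anthracyclines are flat, ringed molecules with an amino sugar that slip between DNA base pairs. They trap topoisomerase II, the enzyme that passes one DNA strand pair through another, on cut DNA, and so leave double-strand breaks. They also displace histones from chromatin. In dividing cells such breaks activate the ATM kinase and p53, halt the cell cycle and can lead to cell death, and doxorubicin is part of standard neuroblastoma chemotherapy. The compounds differ in the side chain next to the ring system: doxorubicin carries a hydroxyl group on the end carbon of the side-chain ketone, where daunorubicin has a plain methyl group.

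The libraries held fewer counts after daunorubicin. The daunorubicin wells of plates 1 and 2 held 762359 and 398811 counts, the 9th and 4th shallowest of the experiment, and the doxorubicin wells held 1265900 and 1680556. The DMSO wells held 1683983 to 2607422, and the median library of the experiment 1790617. Mitochondrially encoded genes took 31.1% and 29.2% of the counts with daunorubicin, 30.4% and 32.3% with doxorubicin and 24.3% to 29% with DMSO. Counts per count of ERCC, an external RNA mix present at 100 or more counts in 97 of the wells and whose added amount is not given, were 593.3 and 208.5 with daunorubicin, 1152 and 812.3 with doxorubicin, and 1582 and 1221 in the DMSO wells that held it. By this measure the daunorubicin wells ranked 5th and 1st from the lowest of the 97, and the doxorubicin wells 31st and 13th. Fewer cells and less RNA per cell cannot be told apart in these bulk libraries. All values below compare shares of a library's counts unless they are said to be scaled by the ERCC mix.

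**Figure D1:**
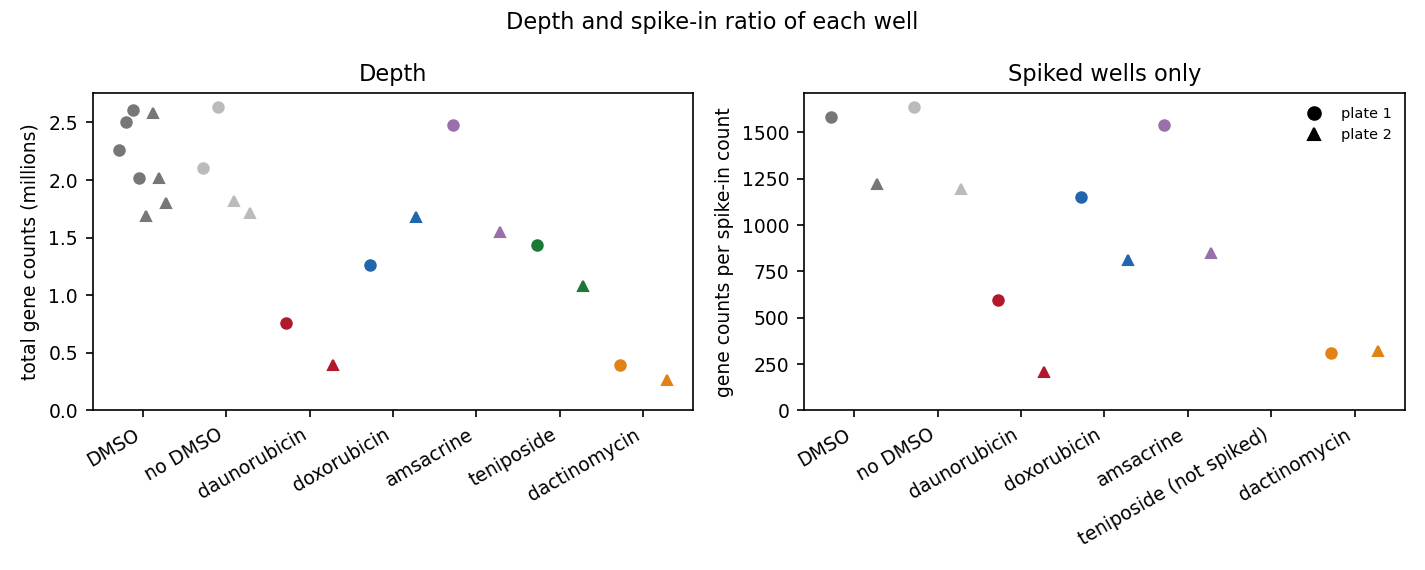
Total gene counts of each well (left, in units of 1e+06) and gene counts per spike-in count in the wells that held the ERCC mix (right), with 1 point a well and the plate shown by the symbol, for the control, anthracycline, amsacrine, teniposide and dactinomycin wells. The daunorubicin wells, at 762359 and 398811 counts, lie below all DMSO and doxorubicin wells in both panels.

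The identity of the line was checked first. HAND2, GATA3 and CHGA, markers of sympathetic neuroblasts, were present in all wells, with CHGA at 510 to 692 CPM (counts divided by the scaled library size in units of 1e+06) in DMSO and 541 to 782 with the anthracyclines. DBH, the enzyme that makes noradrenaline, lay between 0 and 4.56 CPM in DMSO and was at 0 in all 4 anthracycline wells. Of 18 markers of other cell types, 11 had no count in DMSO, 13 none with daunorubicin and 15 none with doxorubicin, among them PTPRC, CD3E, AIF1, PECAM1 and ALB in all. Their summed level was 8.83 to 32.9 CPM in DMSO, 17.1 to 57.3 with daunorubicin and 7.77 to 12.4 with doxorubicin. LUM, a collagen-binding matrix protein of fibroblasts, was the marker that rose with daunorubicin (28.7 and 4.87 CPM, DMSO 2.29 to 16.9), by 1.59 ± 0.59 on the log2 scale (adjusted p = 0.0377). Without the daunorubicin well of plate 1 its difference was 0.09, without DMSO well 2 of plate 1 it was 1.43 (adjusted p = 0.061), without the plate term 1.61 (adjusted p = 0.0701), and with ERCC scaling it was −0.05.

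Of the 13438 genes with enough counts to test, 1617 rose and 1554 fell with daunorubicin (23.6% in all, 12% higher and 11.6% lower), and 1543 rose and 1382 fell with doxorubicin (21.8% in all, 11.5% and 10.3%). Both wells lay outside the range of the 8 DMSO wells in 31.1% of genes with daunorubicin and in 21.9% with doxorubicin. Adjusted p here and below is from edgeR's quasi-likelihood test of all genes with the plate as a block, unless another method is named. Errors are standard errors of the log2 difference of the comparison named, against DMSO between 2 wells and 8. They come from a fit that estimates the spread over all libraries of the experiment. The median gene lay at −0.29 with daunorubicin and −0.06 with doxorubicin on the log2 scale. Both groups are compared with the same 8 DMSO wells. Scaling by the ERCC mix, possible in the 97 wells that held it, moved the median to −2.06 and −0.48 and the calls to 185 higher and 6604 lower with daunorubicin and 194 and 900 with doxorubicin. Scaling by size factors of relative log expression (RLE) moved the median to 0.11 and 0.16, and the higher share of calls from 51% to 73.3% with daunorubicin and from 52.8% to 71.8% with doxorubicin. Directions below are therefore relative to the other genes of a library. Leaving out the daunorubicin well of plate 1 left 1298 genes called with daunorubicin. Leaving out the doxorubicin well of plate 2 left 1093 with doxorubicin, and without the plate term 1772 were called.

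The account opens with CCNB1, ATF3, DDIT3 and HAND1, set at the outset as the marker genes of these compounds. Their changes are no independent check of that choice. CCNB1 (chr5:69167010-69178245, plus strand, GRCh38), which encodes cyclin B1, the partner of CDK1 at entry into mitosis, was read at 27.2 and 4.87 CPM in the daunorubicin wells of plates 1 and 2, at 62.6 and 33 CPM in the doxorubicin wells, and at 81.4 to 181 CPM (median 122) in DMSO. All 4 anthracycline wells lay below all 8 DMSO wells. CCNB1 fell by 2.87 ± 0.35 (adjusted p = 3.54e-11) with daunorubicin and by 1.42 ± 0.24 (adjusted p = 1.34e-06) with doxorubicin on the log2 scale. Without the plate term the doxorubicin difference had an adjusted p of 0.0534.

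ATF3 (chr1:212565334-212620777, plus strand), a stress-induced transcription factor of the ATF/CREB family, stood at 68.8 and 75.6 CPM with daunorubicin, 29.1 and 39.5 with doxorubicin and 0.488 to 8.83 (median 3.49) in DMSO. The anthracycline wells were all above the DMSO wells, with the daunorubicin pair on top. The rise was 4.16 ± 0.41 (adjusted p = 5.69e-16) with daunorubicin and 3.03 ± 0.37 (adjusted p = 8.54e-11) with doxorubicin. DDIT3 (chr12:57516588-57521737, minus strand), which encodes CHOP, a death-promoting factor of the integrated stress response, was at 272 and 207 CPM, 149 and 201 CPM, and 16.9 to 37 CPM (median 29.2) in the same order. It rose by 3.24 ± 0.27 (adjusted p = 2.19e-19) and by 2.71 ± 0.25 (adjusted p = 1.69e-16). Scaled by the ERCC mix, the daunorubicin difference in DDIT3 was 0.99 (adjusted p = 0.146).

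HAND1 (chr5:154474972-154478264, minus strand), a basic helix-loop-helix factor of the sympathetic lineage, gave 67.4 and 207 CPM with daunorubicin, 264 and 438 with doxorubicin and 310 to 933 (median 518) in DMSO. The daunorubicin wells lay below every DMSO well. The doxorubicin well of plate 2 lay within the range of all DMSO wells and below the 4 of its own plate, which were higher (531 to 933 CPM) than those of plate 1 (310 to 505 CPM). HAND1 fell by 2.14 ± 0.28 (adjusted p = 5.82e-10) with daunorubicin and by 0.68 ± 0.23 (adjusted p = 0.022) with doxorubicin. The doxorubicin call was lost without either doxorubicin well (adjusted p = 0.177 and 0.203), without DMSO well 2 of plate 2 (0.0678), without the plate term (0.356), with no filter on low counts (0.0861) and under RLE scaling (0.147). Under ERCC scaling it was −0.77 (0.392), and in the same wells under TMM −0.23 (0.669).

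**Figure D2:**
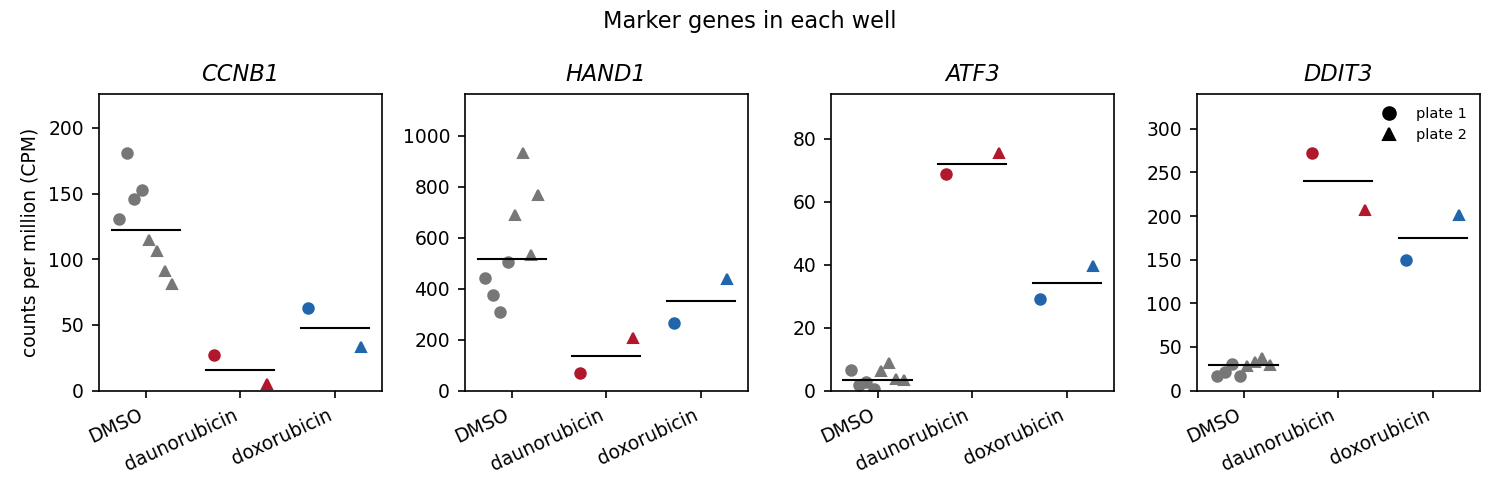
CPM (linear axis from 0) of CCNB1, HAND1, ATF3 and DDIT3 in the DMSO, daunorubicin and doxorubicin wells, with 1 point a well, the plate shown by the symbol, and a line at the DMSO median or the compound mean. The daunorubicin wells lie outside the DMSO range for all these genes, while 1 doxorubicin well lies inside it for HAND1.

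Of 30 genes of G2 and mitosis tested, 17 fell and 1 rose with daunorubicin (median −1.23 on the log2 scale, all genes −0.29), and 9 fell and 1 rose with doxorubicin (median −0.59, all genes −0.06). The other 12 and 20 did not pass, and 11.6% and 10.3% of all genes fell. Under RLE scaling 10 fell with daunorubicin and 7 with doxorubicin, under ERCC scaling 26 and 5, and without the daunorubicin well of plate 1 the number fallen with daunorubicin was 9. It was 10 without the daunorubicin well of plate 2, and without the doxorubicin well of plate 1 or 2 the number fallen with doxorubicin was 5 and 4. The fallen members with both compounds included the kinases AURKA and PLK1, the spindle checkpoint kinase BUB1B, the cyclins CCNA2, CCNB1 and CCNB2 and the anaphase activator CDC20.

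PLK1, which drives entry into and passage through mitosis, stood at 295 and 417 CPM with daunorubicin and 259 and 515 with doxorubicin, against 585 to 1530 (median 906) in DMSO. All anthracycline wells lay below the DMSO wells. It fell by 1.33 ± 0.26 (adjusted p = 2.4e-05) and by 1.28 ± 0.25 (adjusted p = 3e-05); without the plate term the adjusted p was 0.0663 and 0.111. CCNB2, cyclin B2, was at 31.5 and 4.87 CPM with daunorubicin, 59 and 29.1 with doxorubicin and 43.2 to 138 (median 89.3) in DMSO. The daunorubicin wells lay below the DMSO range and 1 doxorubicin well within it, though each well lay below the 4 DMSO wells of its own plate. CCNB2 fell by 2.27 ± 0.43 (adjusted p = 1.52e-05, without the plate term 0.129) and by 1.01 ± 0.30 (adjusted p = 0.00782), the second lost without the doxorubicin well of plate 1 (−0.74, adjusted p = 0.24) and without the plate term (0.449).

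PTTG1, securin, which restrains the enzyme that separates sister chromatids, was at 477 and 648 CPM with daunorubicin, 679 and 1530 with doxorubicin and 1070 to 1970 (median 1410) in DMSO. Only the doxorubicin well of plate 2 lay in the DMSO range, and it was just below the 4 DMSO wells of its plate (1540 to 1970 CPM). PTTG1 fell by 1.36 ± 0.22 with daunorubicin (adjusted p = 5.74e-07), and the doxorubicin difference was −0.45 ± 0.20 (adjusted p = 0.1). The member that went the other way was CDC25C, the phosphatase that activates CDK1, singled out after its values were seen. It was at 38.7 and 17.1 CPM with daunorubicin, 21.8 and 24.6 with doxorubicin and 2.44 to 10.2 in DMSO, a rise of 2.23 ± 0.56 (adjusted p = 0.00119) and 1.88 ± 0.44 (adjusted p = 0.000592). Without the daunorubicin well of plate 1 the first was 1.50 (adjusted p = 0.446), and without the doxorubicin well of plate 2 the second was 1.75 (adjusted p = 0.051). With ERCC scaling they were 0.23 (adjusted p = 0.828) and 1.27 (adjusted p = 0.225).

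Many mitotic genes carry CCAAT boxes, bound by the factor NF-Y. Many also carry a cell cycle homology region (CHR), bound by the DREAM and MuvB complexes that silence or activate these genes through the cell cycle. The CHR was searched only as the letters TTTGAA. Other forms of it were not searched, so a promoter without TTTGAA is not shown to lack a CHR. The 250 bases before the start of 4 members are printed because their values are given above and their promoters hold CCAAT, with TTTGAA in CCNB2 and PLK1 and without it in CCNB1 and PTTG1. They are from RefSeq on GRCh38.p14, 5′ to 3′ on the gene's strand, here the plus strand: CCNB1 at chr5:69166900-69167149, CCNB2 at chr15:59104896-59105145, PLK1 at chr16:23678639-23678888 and PTTG1 at chr5:160421605-160421854. Capitals mark CCAAT, its reverse complement ATTGG, and TTTGAA.
CCNB1: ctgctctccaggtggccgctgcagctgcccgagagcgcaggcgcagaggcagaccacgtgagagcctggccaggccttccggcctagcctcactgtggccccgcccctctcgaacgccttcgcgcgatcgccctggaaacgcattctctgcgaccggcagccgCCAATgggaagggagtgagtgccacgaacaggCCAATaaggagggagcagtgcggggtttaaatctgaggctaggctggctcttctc
CCNB2: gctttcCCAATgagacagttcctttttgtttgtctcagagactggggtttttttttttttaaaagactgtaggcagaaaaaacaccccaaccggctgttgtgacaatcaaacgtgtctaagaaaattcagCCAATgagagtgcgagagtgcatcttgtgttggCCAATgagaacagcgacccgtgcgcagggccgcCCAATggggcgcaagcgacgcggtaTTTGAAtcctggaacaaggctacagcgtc
PLK1: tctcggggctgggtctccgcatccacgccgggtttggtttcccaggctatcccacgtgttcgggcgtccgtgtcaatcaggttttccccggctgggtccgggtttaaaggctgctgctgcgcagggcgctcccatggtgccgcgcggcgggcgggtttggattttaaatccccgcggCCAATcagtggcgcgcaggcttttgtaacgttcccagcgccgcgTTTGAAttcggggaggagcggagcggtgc
PTTG1: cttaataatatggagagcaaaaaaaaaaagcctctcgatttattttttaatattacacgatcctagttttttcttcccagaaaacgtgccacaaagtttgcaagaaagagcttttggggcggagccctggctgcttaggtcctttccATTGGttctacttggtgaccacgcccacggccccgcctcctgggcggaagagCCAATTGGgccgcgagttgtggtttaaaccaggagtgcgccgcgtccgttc

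CCNB1 has CCAAT 87 and 55 bases before its start, and CCNB2 has it 244, 120, 87 and 54 bases before, with TTTGAA at 29. PLK1 has a single CCAAT at 73 and TTTGAA at 29 bases before the start. PTTG1 has CCAAT at 51 and in reverse at 103 and 48, the last overlapping the forward one. Searched on both strands, CCAAT was in 20 of the 25 members of the G2 and mitosis list that had a promoter in the table (80.0%), and at least 2 copies were in 14 (56.0%). TTTGAA was in 12 (48.0%). Among the promoters of all 9456 tested genes found in the table the shares were 35.5%, 13.0% and 8.08%, and among all 27305 promoters 33.0%, 10.0% and 13.6%. Of the 15 members with a promoter that fell with daunorubicin, 13 held CCAAT (86.7%) and 7 TTTGAA (46.7%), near the shares of the whole list. Over all called genes CCAAT was in 34.1% of fallen and 42.3% of risen promoters with daunorubicin. With doxorubicin these shares were 33.3% and 40.9%, so CCAAT was not more frequent among fallen genes than among all tested genes. PLK1, with one CCAAT, and CCNB1, with a pair, both fell with each compound. These matches describe letters and do not show binding.

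In S phase and DNA replication, 7 of 25 genes fell and none rose with daunorubicin (median −0.99, 11.6% of all genes lower). With doxorubicin 5 fell and 2 rose (median −0.26, 10.3% of all genes lower and 11.5% higher). Without the daunorubicin well of plate 1 the count fallen with daunorubicin was 2, under RLE scaling it was 3 with 1 risen, and under ERCC scaling 23. Without the doxorubicin well of plate 1 or 2 the count fallen with doxorubicin was 1 and 2. RRM2, the subunit of ribonucleotide reductase that limits the supply of DNA precursors, was at 17.2 and 24.4 CPM with daunorubicin, 59.7 and 74.5 with doxorubicin and 78.5 to 145 (median 104) in DMSO. All 4 wells lay below the DMSO range, the daunorubicin pair lowest. RRM2 fell by 2.43 ± 0.40 with daunorubicin (adjusted p = 6.91e-07) and by 0.71 ± 0.26 with doxorubicin (adjusted p = 0.0382); the second had an adjusted p of 0.284 and 0.198 without the doxorubicin well of plate 1 or 2, of 0.0567 to 0.0741 without each of 5 DMSO wells (wells 1, 2 and 3 of plate 1, wells 3 and 4 of plate 2), of 0.0936 without the plate term and of 0.0647 by DESeq2.

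The enzymes these compounds act on were read next. Among 8 topoisomerases and enzymes that remove trapped topoisomerases, 3 fell and none rose with daunorubicin (median −1.41, 11.6% of all genes lower). None passed with doxorubicin (median −0.56, 10.3% of all genes lower). The daunorubicin count was 1 and 2 fallen without the daunorubicin well of plate 1 or 2, under RLE scaling 3 fell and 1 rose, and under ERCC scaling 6 fell. TOP2A (chr17:40388516-40417950, minus strand), the topoisomerase II of dividing cells, was at 282 and 429 CPM with daunorubicin, 540 and 506 with doxorubicin and 562 to 1140 (median 814) in DMSO. All 4 wells lay below the DMSO wells. TOP2A fell by 1.23 ± 0.28 with daunorubicin (adjusted p = 0.000352, without the plate term 0.0547), and the doxorubicin difference was −0.60 ± 0.26 (adjusted p = 0.0812, and 0.033 by DESeq2). TOP2B (chr3:25597905-25664907, minus strand), the form present outside the cell cycle and the one tied to cardiac damage, had no count in either daunorubicin well, 4.37 and 7.77 CPM with doxorubicin and 8.13 to 21.8 (median 15.4) in DMSO. Against a floor of 3 counts over the daunorubicin wells it was at least 5.46-fold lower than in DMSO (adjusted p = 0.0214). That call was lost without the daunorubicin well of plate 1 (0.217) or plate 2 (0.138) and with libraries thinned to one depth (0.133), and doxorubicin gave −1.31 ± 0.65 (adjusted p = 0.143).

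Of 25 genes of DNA damage signalling and repair, 6 fell with daunorubicin and 10 with doxorubicin, and none rose (medians −0.65 and −0.55), where 11.6% and 10.3% of all genes fell. The other 19 and 15 did not pass. Under RLE scaling 6 fell with each, with 1 risen with daunorubicin, and under ERCC scaling 22 and 5 fell. Without the daunorubicin well of plate 1 the daunorubicin count was 2, and without that of plate 2 it was 9. The doxorubicin count was 5 and 2 without the doxorubicin well of plate 1 or 2, and 2 with thinned libraries. NBN and RAD50 encode 2 subunits of the MRN complex, which binds broken DNA ends and activates ATM. NBN was at 11.5 and 26.8 CPM with daunorubicin, 17.5 and 5.18 with doxorubicin and 46.4 to 90.5 (median 75.7) in DMSO. All 4 anthracycline wells were below the DMSO range. NBN fell by 2.05 ± 0.40 (adjusted p = 2.18e-05) and by 2.71 ± 0.34 (adjusted p = 1.52e-10), the first with an adjusted p of 0.0783 without the daunorubicin well of plate 1. RAD50, at 54.5, 26.8, 96.1 and 44.7 CPM in the daunorubicin and then doxorubicin wells against 112 to 265 in DMSO, fell by 1.96 ± 0.42 (adjusted p = 0.000125) and 1.27 ± 0.33 (adjusted p = 0.00236); without the doxorubicin well of plate 2 the second was −0.78 (adjusted p = 0.285). XRCC5, the Ku80 subunit that holds broken ends for joining, fell by 1.57 ± 0.26 with daunorubicin (adjusted p = 8.53e-07). Its doxorubicin fall of 0.66 ± 0.23 (adjusted p = 0.027) had an adjusted p of 0.358 and 0.102 without either doxorubicin well, 0.0985, 0.0664 and 0.0561 without DMSO well 3 or 1 of plate 1 or well 2 of plate 2, 0.091 without the plate term and 0.166 under RLE scaling.

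Targets of p53 were divided, set beside 12% of all genes risen and 11.6% fallen with daunorubicin and 11.5% and 10.3% with doxorubicin. With daunorubicin 6 of 23 rose (CDKN1A, FAS, FDXR, GDF15, PPM1D and XPC) and 2 fell (RPS27L and TP53I3), with a median of 0.62. With doxorubicin 6 rose (among them CDKN1A, DDB2, FAS, PMAIP1 and SESN2) and TP53I3 fell, with a median of 0.19. Under ERCC scaling none rose with either compound and 6 fell with daunorubicin; without the daunorubicin well of plate 1 or of plate 2 the daunorubicin counts were 3 and 2 risen, and without the doxorubicin well of plate 2 the doxorubicin count was 1 risen. CDKN1A, the p21 inhibitor of cyclin-dependent kinases, was at 22.9 and 29.2 CPM with daunorubicin, 13.8 and 55 with doxorubicin and 5.2 to 11.9 (median 7.52) in DMSO. The 4 anthracycline wells were above the DMSO wells. It rose by 1.74 ± 0.59 (adjusted p = 0.0209) and by 2.04 ± 0.40 (adjusted p = 3.36e-05). The daunorubicin call was lost without the well of plate 1 (1.54, adjusted p = 0.291) or of plate 2 (1.96, 0.0664) and without the plate term (0.0738), and the value was −0.28 with ERCC scaling. The doxorubicin value was 1.21 (adjusted p = 0.314) without the well of plate 2.

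MDM2, the ubiquitin ligase that p53 induces and that degrades it, was at 7.16 and 12.2 CPM with daunorubicin, 5.1 and 1.94 with doxorubicin and 3.42 to 13.4 in DMSO, and the groups overlapped. Its differences were 0.32 ± 1.00 (adjusted p = 0.853, −2.07 with ERCC scaling) and −1.09 ± 0.89 (adjusted p = 0.422). RPS27L, a ribosomal protein paralog induced by p53, was at 96 and 156 CPM with daunorubicin, 381 and 822 with doxorubicin and 344 to 678 (median 448) in DMSO. Only the daunorubicin wells left the DMSO range, below it. RPS27L fell by 1.96 ± 0.29 with daunorubicin (adjusted p = 2.61e-08), and the doxorubicin difference was 0.27 ± 0.22 (adjusted p = 0.425).

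Of 27 ATF4 and integrated stress response genes, a list that includes ATF3 and DDIT3, 5 rose and 1 fell with daunorubicin (median 0.20). With doxorubicin 5 rose and 2 fell (median 0.21). Of all genes 12% rose and 11.6% fell with daunorubicin, and 11.5% and 10.3% with doxorubicin. Under ERCC scaling 1 gene of the list rose and 10 fell with daunorubicin, and 2 rose with doxorubicin. Without the doxorubicin well of plate 2 the doxorubicin count was 3 risen. STC2, a secreted glycoprotein induced by ATF4, was at 179 and 56.1 CPM with daunorubicin, 48.1 and 71.9 with doxorubicin and 10.2 to 26.4 (median 21.7) in DMSO. All 4 wells were above the DMSO range. It rose by 2.60 ± 0.32 (adjusted p = 2.47e-11, with ERCC scaling 0.89 and 0.224) and by 1.67 ± 0.30 (adjusted p = 6.14e-06), the second 1.12 (adjusted p = 0.0733) without the doxorubicin well of plate 2. ATF4 itself, singled out after its values were seen, was at 30.1 and 21.9 CPM with daunorubicin, 25.5 and 20.1 with doxorubicin and 37.5 to 111 in DMSO. The anthracycline wells lay below the DMSO wells. It fell by 1.64 ± 0.48 with doxorubicin (adjusted p = 0.00731, 0.0892 without the plate term, 0.352 without the well of plate 2), and daunorubicin gave −1.33 ± 0.58 (adjusted p = 0.0819, and 0.0188 by DESeq2).

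Of 20 immediate early and AP-1 genes 6 rose and 1 fell with daunorubicin (median 0.32, 12% of all genes higher and 11.6% lower). With doxorubicin 4 rose and 2 fell (median 0.27, 11.5% of all genes higher and 10.3% lower). Under ERCC scaling the daunorubicin counts were 2 risen and 5 fallen. With the daunorubicin well of plate 1 left out 3 rose with daunorubicin, and without the doxorubicin well of plate 2, 2 rose with doxorubicin. The dual-specificity phosphatases DUSP4, DUSP5 and DUSP6, which switch off MAP kinases, were among the genes risen with daunorubicin. FOSB, a partner of JUN in AP-1, was at 35.8 and 36.6 CPM with daunorubicin, 0.728 and 0.647 with doxorubicin and 0 to 1.22 in DMSO. The daunorubicin wells stood alone. They held 40 counts against 2 over the 8 DMSO wells, a ratio per library size of 308 (95% counting interval 79.8 to 2630; adjusted p = 1.46e-10). KLF6, a zinc-finger factor of the same list, stood at 178 and 234 CPM with daunorubicin, 68.5 and 121 with doxorubicin and 186 to 265 in DMSO. It fell by 1.29 ± 0.23 with doxorubicin (adjusted p = 7.27e-06, without the plate term 0.083), and the daunorubicin difference was −0.12 ± 0.23 (adjusted p = 0.755).

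HEXIM1 and LARP7 both belong to the 7SK complex that holds the elongation kinase P-TEFb inactive. HEXIM1 was at 35.8 and 41.4 CPM with daunorubicin, 20.4 and 28.5 with doxorubicin and 0.976 to 7.8 (median 4.32) in DMSO, and LARP7 at 63.1, 82.9, 99 and 93.9 against 215 to 339 (median 241). Neither gene's anthracycline wells met the DMSO range. HEXIM1 rose by 3.04 ± 0.53 (adjusted p = 1.76e-06, with ERCC scaling 1.37 and 0.102) and 2.40 ± 0.44 (adjusted p = 7.27e-06). LARP7 fell by 1.83 ± 0.31 (adjusted p = 1.51e-06) and 1.41 ± 0.27 (adjusted p = 1.86e-05). Of the 10 P-TEFb and BET genes tested, 1 rose and 2 fell with daunorubicin (12% of all genes higher and 11.6% lower). With doxorubicin 1 rose and 1 fell (11.5% of all genes higher and 10.3% lower).

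**Figure D3:**
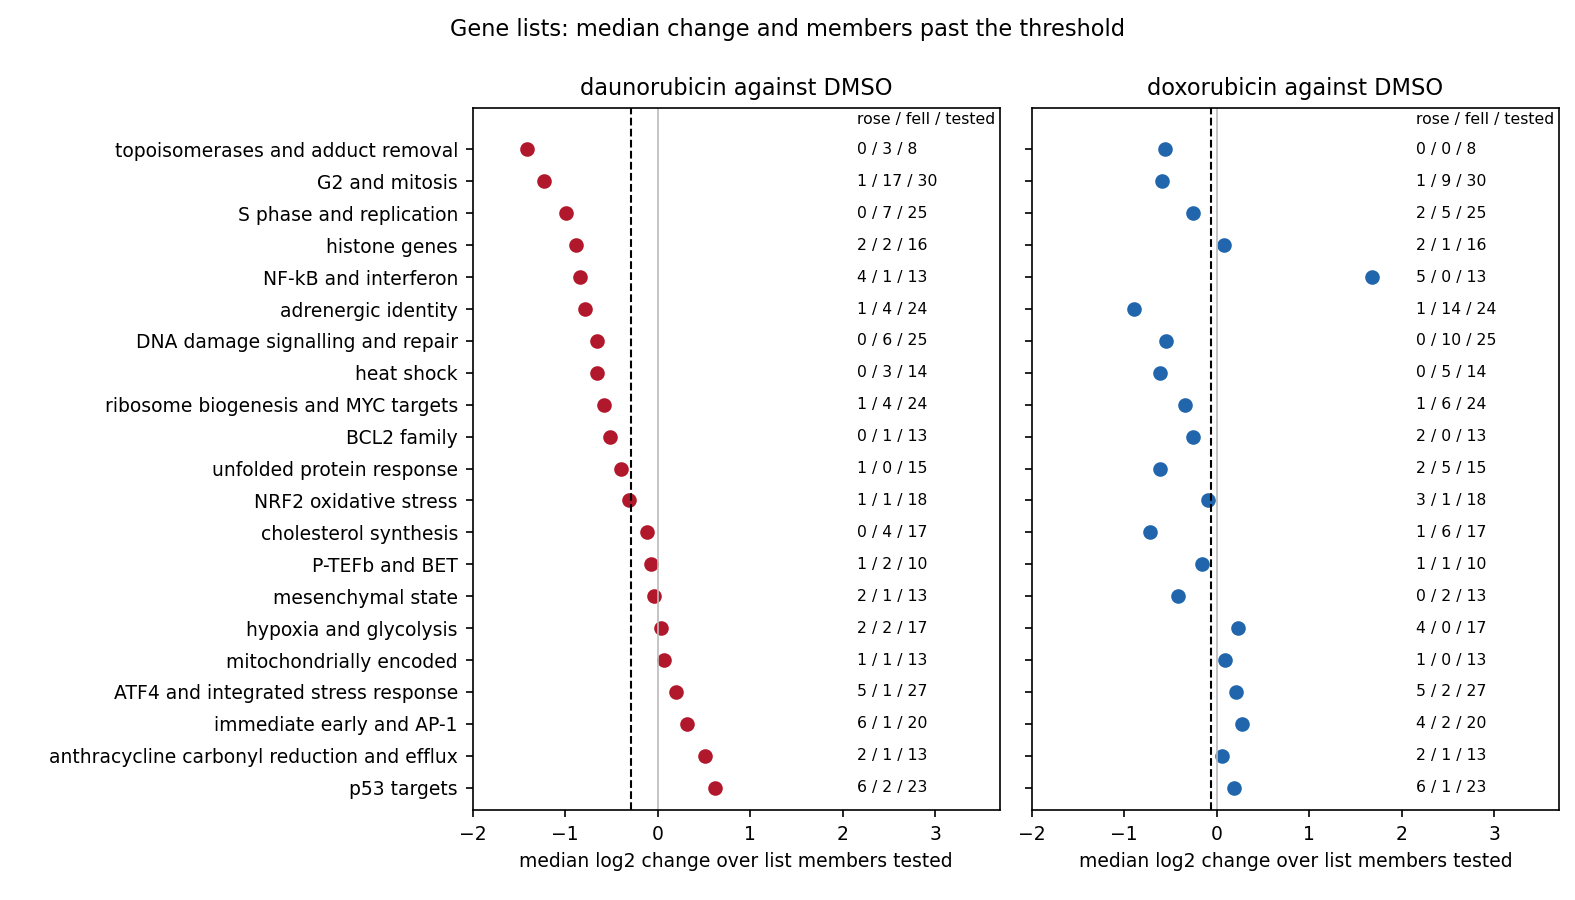
Median log2 difference from DMSO over the tested genes of each list (points, horizontal axis) with daunorubicin (left) and doxorubicin (right), the median of all tested genes (dashed line), and the numbers risen, fallen and tested. G2 and mitosis holds the most fallen genes with daunorubicin, 17 of 30, and adrenergic identity the most with doxorubicin, 14 of 24.

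Genes of adrenergic identity, the transcriptional state that sympathetic neuroblasts hold, fell with doxorubicin in 14 of 24 cases and rose in 1 (median −0.89, 10.3% of all genes lower). With daunorubicin 4 fell and 1 rose (median −0.78, 11.6% of all genes lower). Leaving out the doxorubicin well of plate 1 or 2 left 4 and 3 fallen with doxorubicin, thinned libraries 4 and the spiked wells under TMM 6. The doxorubicin count was 5 fallen and 2 risen under RLE scaling and 5 fallen under ERCC scaling, and the daunorubicin count 3 and 3 under RLE scaling and 20 fallen under ERCC scaling; without the daunorubicin well of plate 1 it was 2 fallen. HAND1, HAND2, SOX11 and TBX2 fell with each compound, and INSM1, a zinc-finger repressor of neuroendocrine cells, rose with each; SOX11 and INSM1 are named after their values were seen. The other genes fallen with doxorubicin included the core factors GATA2, TBX3 and TFAP2B and the catecholamine enzymes TH and DDC.

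HAND2, a core factor of the adrenergic circuit, was at 53 and 21.9 CPM with daunorubicin, 82.3 and 85.5 with doxorubicin and 90.2 or more (median 148) in DMSO. All 4 wells lay below the DMSO range. It fell by 1.92 ± 0.34 (adjusted p = 3.78e-06) and by 0.79 ± 0.25 (adjusted p = 0.016), the second with an adjusted p of 0.336 and 0.0605 without either doxorubicin well, 0.0958 without the plate term and 0.103 under RLE scaling. TBX2, a T-box factor of the same circuit, was at 53 and 78 CPM, 59.7 and 93.2 CPM and 139 to 157 CPM in the same order, below DMSO in every anthracycline well. TBX2 fell by 1.22 ± 0.22 (adjusted p = 6.28e-06) and 0.94 ± 0.18 (adjusted p = 3.48e-05); without the plate 1 well of the compound these were −0.88 (adjusted p = 0.0504) and −0.56 (adjusted p = 0.102).

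KLF7, a zinc-finger factor of neurons, moved apart between the compounds. It was at 38.7 and 51.2 CPM with daunorubicin, above the DMSO wells at 24.8 to 35.6, and at 7.28 and 11 with doxorubicin, below them. KLF7 fell by 1.69 ± 0.42 with doxorubicin (adjusted p = 0.00131, 0.144 without the well of plate 1), and the daunorubicin difference was 0.51 ± 0.39 (adjusted p = 0.371, −1.34 with ERCC scaling). MYCN, the amplified driver of this tumour, was at 381 and 312 CPM with daunorubicin, 348 and 90 with doxorubicin and 49.6 to 199 (median 135) in DMSO. Both daunorubicin wells and 1 of the doxorubicin wells lay above the DMSO range. The daunorubicin difference in MYCN was 1.45 ± 0.60 (95% interval 0.26 to 2.64, adjusted p = 0.0668). Of 22 alternatives 5 passed the threshold, among them DESeq2 with 1.67 (adjusted p = 5.36e-07) and RLE scaling with 1.86 (adjusted p = 0.0127). With ERCC scaling the value was −0.20 (adjusted p = 0.858). The doxorubicin difference was 0.66 (adjusted p = 0.463).

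Of 13 mesenchymal genes, the other state these cells can take, 2 rose and 1 fell with daunorubicin and 2 fell with doxorubicin, where 12% of all genes rose and 11.6% fell with daunorubicin and 10.3% fell with doxorubicin. None passed with daunorubicin without its well of plate 1, and under ERCC scaling none rose and 8 fell. COL1A1, a fibrillar collagen, was at 440 and 446 CPM with daunorubicin, 183 and 258 with doxorubicin and 446 to 595 in DMSO. The daunorubicin wells lay just below the lowest DMSO well and the doxorubicin wells far below it. COL1A1 fell by 1.25 ± 0.24 with doxorubicin (adjusted p = 2.41e-05), and daunorubicin gave −0.26 ± 0.23 (adjusted p = 0.464).

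NF-kB and interferon genes rose in 5 of 13 cases with doxorubicin (among them CCL2, IRF1, NFKB1 and NFKB2) and none fell. The median was 1.68 where all genes lay at −0.06 and 11.5% of them rose. With daunorubicin 4 rose (IRF1, IRF7, NFKB2 and RELB) and NFKBIA fell. The median was −0.84 where all genes lay at −0.29, with 12% of them risen and 11.6% fallen. Under ERCC scaling 2 rose with doxorubicin and 3 fell with daunorubicin, and without the daunorubicin well of plate 1 no gene of the list rose with daunorubicin and 1 fell. Without the doxorubicin well of plate 2, 3 rose with doxorubicin. The daunorubicin fall of NFKBIA (−1.63, adjusted p = 0.00168) had an adjusted p of 0.109 without the plate term. CCL2 (chr17:34255218-34257203, plus strand), the chemokine that draws monocytes, was at 1.43 and 4.87 CPM with daunorubicin, 67 and 38.2 with doxorubicin and 0.573 to 2.93 (median 1.42) in DMSO. The doxorubicin wells stood alone. CCL2 rose by 4.94 ± 0.43 with doxorubicin (adjusted p = 4.75e-20), and the daunorubicin difference was 0.72 ± 1.39 (adjusted p = 0.758). It stood at 12.3 and 14.1 CPM with teniposide and at 18.5 and 14.2 with amsacrine, rises of 2.95 (adjusted p = 0.000166) and 3.30 (adjusted p = 1.27e-06).

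IRF1, a transcription factor induced by interferon and NF-kB, was at 22.9 and 12.2 CPM with daunorubicin, 16 and 12.3 with doxorubicin and 0 to 2.53 in DMSO. All 4 anthracycline wells lay above the DMSO range, and the doxorubicin wells lay between the daunorubicin wells. It rose by 4.72 ± 0.86 (adjusted p = 3.79e-06, without the well of plate 1 0.0662, with ERCC scaling 0.109) and 4.30 ± 0.68 (adjusted p = 1.91e-07). NFKB2, the p100 precursor of the noncanonical pathway, rose by 2.65 ± 0.63 (adjusted p = 0.000581, 0.135 without the daunorubicin well of plate 1) and 2.40 ± 0.47 (adjusted p = 3.4e-05, 0.0648 without the doxorubicin well of plate 2). With ERCC scaling these were 0.52 (adjusted p = 0.61) and 1.73 (adjusted p = 0.0938), and with thinned libraries the second had an adjusted p of 0.134.

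Cells break down anthracyclines in part by carbonyl reduction, and pump them out through ABC transporters. Of 13 genes of these routes 2 rose and 1 fell with each compound. Of all genes 12% rose and 11.6% fell with daunorubicin, and 11.5% and 10.3% with doxorubicin. Under ERCC scaling 6 genes of these routes fell with daunorubicin. CBR3, a carbonyl reductase, was at 24.4 and 73.1 CPM with daunorubicin, 24 and 47.3 with doxorubicin and 8.04 to 29.9 (median 11) in DMSO. The plate 1 wells lay within the range of all DMSO wells, and each well lay above the 4 DMSO wells of its own plate. CBR3 rose by 1.69 ± 0.47 (adjusted p = 0.00358) and 1.32 ± 0.37 (adjusted p = 0.00481); without the plate 2 well of the compound the values were 1.33 (adjusted p = 0.21) and 1.28 (adjusted p = 0.149), and ERCC scaling gave −0.73 for daunorubicin and 0.43 (adjusted p = 0.645) for doxorubicin, and without the plate term the latter had an adjusted p of 0.0792. POR, the cytochrome P450 reductase that can pass an electron to the anthracycline ring, rose by 1.13 ± 0.19 with doxorubicin (117 and 224 CPM, DMSO 39.8 to 108; adjusted p = 2.1e-06, without the plate term 0.0827) and by 0.71 ± 0.23 with daunorubicin (94.6 and 154 CPM; adjusted p = 0.0173). The daunorubicin call in POR was lost without the well of plate 1 (adjusted p = 0.24) and without the plate term (0.4), and ERCC scaling gave −1.47. AKR1C3, an aldo-keto reductase, had no count with daunorubicin and 7.6 to 30.2 CPM in DMSO. Against a floor of 3 counts it was 5.39-fold lower (lower 95% counting limit 4.35, adjusted p = 0.00482). That call was lost without the daunorubicin well of plate 1.

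Of 24 ribosome biogenesis and MYC target genes 4 fell and 1 rose with daunorubicin and 6 fell and 1 rose with doxorubicin (medians −0.58 and −0.34), where 11.6% and 10.3% of all genes fell. Under RLE scaling 3 rose and 2 fell with daunorubicin and 1 rose and 3 fell with doxorubicin, and under ERCC scaling 22 and 5 fell and none rose. The daunorubicin count was 1 fallen without the daunorubicin well of plate 2, and without the doxorubicin well of plate 1 or 2 the doxorubicin count was 2 and 3. DKC1, the pseudouridine synthase of small nucleolar RNPs, was at 25.8 and 31.7 CPM with daunorubicin, 106 and 79.6 with doxorubicin and 170 to 275 (median 234) in DMSO. The 3 groups did not overlap. DKC1 fell by 3.02 ± 0.39 (adjusted p = 2.9e-10) and 1.31 ± 0.27 (adjusted p = 0.000114). HSPD1, the mitochondrial chaperonin, fell by 1.69 ± 0.22 (adjusted p = 3.09e-10) and by 1.02 ± 0.20 (adjusted p = 2.21e-05, without the plate term 0.0612), among 3 and 5 fallen of 14 heat shock genes. DHCR7, the last enzyme of cholesterol synthesis, fell by 2.04 ± 0.54 (adjusted p = 0.00215, without the daunorubicin well of plate 1 0.227) and 2.07 ± 0.41 (adjusted p = 4.57e-05), among 4 and 6 fallen of 17 genes of that pathway, of which 1 rose with doxorubicin.

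In the hypoxia and glycolysis list 2 of 17 rose and 2 fell with daunorubicin and 4 rose with doxorubicin. Beside this list and those below, 12% of all genes rose and 11.6% fell with daunorubicin, and 11.5% and 10.3% with doxorubicin. NDRG1, a stress and hypoxia responsive gene, was at 58.8 and 46.3 CPM with daunorubicin, 8.01 and 40.8 with doxorubicin and 0.609 to 4.33 in DMSO. All 4 wells were above the DMSO wells. It rose by 4.59 ± 0.53 (adjusted p = 9.48e-13) and 3.47 ± 0.49 (adjusted p = 5.36e-09), the second 1.91 (adjusted p = 0.182) without the doxorubicin well of plate 2. Of the remaining lists, the BCL2 family had 1 fallen of 13 with daunorubicin and 2 risen with doxorubicin, the unfolded protein response 1 risen of 15 with daunorubicin and 2 risen and 5 fallen with doxorubicin, NRF2 targets 1 risen and 1 fallen of 18, then 3 and 1, histone genes 2 and 2 of 16, then 2 and 1, and mitochondrially encoded genes 1 and 1 of 13, then 1 and none. Under RLE scaling 7 mitochondrially encoded genes rose with daunorubicin and 4 with doxorubicin and none fell, and under ERCC scaling all 13 fell with daunorubicin and 1 with doxorubicin. The unfolded protein response had none fallen with doxorubicin under RLE scaling, with thinned libraries or without the doxorubicin well of plate 2, and 1 without that of plate 1.

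The largest rises were in genes that DMSO wells hardly expressed. They were ranked by log2 difference among called genes with a mean of 30 CPM or more in the compound or DMSO wells. That rank favours genes of low DMSO level, so the low level is no separate result. C9orf152, an uncharacterised reading frame, was at 109 and 65.8 CPM with daunorubicin, 7.28 and 9.71 with doxorubicin and 0 to 0.866 in DMSO, and rose by 8.19 ± 0.57 (adjusted p = 1.11e-23) and 4.86 ± 0.85 (adjusted p = 3.86e-06). PCAT6, a long noncoding RNA, was at 367 and 180 CPM, 17.5 and 16.2 CPM and 0 to 3.53 CPM in the same order, and rose by 6.58 ± 0.35 (adjusted p = 1.21e-38) and 2.59 ± 0.52 (adjusted p = 4.57e-05, with ERCC scaling 1.90 and 0.0739). Daunorubicin gave the higher level of each. WAS, the actin regulator of blood cells, was at 96 and 58.5 CPM with daunorubicin and 51.7 and 75.1 with doxorubicin, against 0 to 4.47 in DMSO. The compounds overlapped, and WAS rose by 5.52 ± 0.49 (adjusted p = 1.18e-19) and 5.31 ± 0.42 (adjusted p = 1.14e-23). HLA-E, a nonclassical class I molecule that natural killer cells read, was at 47.3 and 53.6 CPM, 61.2 and 86.8 CPM and 0 to 4.87 CPM, and rose by 4.75 ± 0.54 (adjusted p = 6.08e-13) and 5.26 ± 0.39 (adjusted p = 2.65e-24).

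Among the others, GADD45B, a stress-induced regulator of p38 and JNK signalling, was at 115 and 29.2 CPM with daunorubicin, 32.8 and 33.7 with doxorubicin and 1.46 to 7.66 in DMSO, and rose by 4.29 ± 0.39 (adjusted p = 3.13e-18) and 3.29 ± 0.37 (adjusted p = 1.43e-12). LTB4R, the leukotriene B4 receptor, was at 102 and 207, 7.28 and 24.6 and 0.813 to 6.08 CPM. It rose by 5.93 ± 0.44 (adjusted p = 1.5e-25) and 2.67 ± 0.58 (adjusted p = 0.000191, without the doxorubicin well of plate 2 0.23). ZSCAN10, a zinc-finger factor of pluripotent cells, and PPEF2, a phosphatase of photoreceptors, had no count in DMSO. They held 38 and 43 counts over the daunorubicin wells, at least 195-fold and 221-fold higher than a floor of 3 counts over the DMSO wells. PPEF2 came mainly from the daunorubicin well of plate 1 (58.8 and 4.87 CPM) and had an adjusted p of 0.166 without it.

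The largest falls were named by the same rule, under which a fall can only start from a mean of 30 CPM or more in DMSO. COIL, coilin, the scaffold of Cajal bodies where splicing RNAs mature, was at 5.73 and 2.44 CPM with daunorubicin, 6.55 and 3.88 with doxorubicin and 38.9 to 64.5 (median 44) in DMSO. The anthracycline wells formed one group far below DMSO. COIL fell by 3.36 ± 0.65 (adjusted p = 2.24e-05) and 3.20 ± 0.46 (adjusted p = 2.35e-08). ANKRD1, a target of the Hippo pathway factor YAP, fell by 4.12 ± 0.73 with doxorubicin (4.37 and 0.647 CPM, DMSO 18.2 to 75.5; adjusted p = 5.11e-06) and by 3.55 ± 0.94 with daunorubicin (2.87 and 4.87 CPM; adjusted p = 0.00227, without the well of plate 1 0.151). KAZN, a junction-associated protein, left 1 count over the daunorubicin wells, which was 42.6-fold lower than in DMSO (95% counting interval 7.62 to 1690; adjusted p = 0.00178, without the well of plate 1 0.125), and fell by 3.16 ± 0.69 with doxorubicin (adjusted p = 0.000259). ZFP82, a KRAB zinc-finger protein, also left 1 count, 35.5-fold lower (6.35 to 1410; adjusted p = 2.43e-05), and fell by 1.97 ± 0.42 with doxorubicin (8.01 and 8.42 CPM, DMSO 23.8 to 47.6; adjusted p = 0.000165).

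HNRNPDL, an RNA-binding protein, fell with doxorubicin and not past the threshold with daunorubicin. It was at 8.01 and 7.77 CPM with doxorubicin, 67.4 and 36.6 with daunorubicin and 49.3 to 137 (median 91.9) in DMSO. The fall with doxorubicin was 3.47 ± 0.41 (adjusted p = 1.27e-11), and daunorubicin gave −0.81 ± 0.34 (adjusted p = 0.0753, and 0.0398 by DESeq2).

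The compounds were then compared directly, as the single pair at one concentration label and one time. Between them 710 genes differed, 5.28% of those tested: 333 were higher with daunorubicin (2.48%) and 377 lower (2.81%). The wells of the compounds did not overlap in 40.2% of genes. With so few wells in each group, many genes separate by the order of the wells alone, more than against the larger DMSO group. This share therefore cannot be set beside the shares given for each compound against DMSO, and it does not show how far the compounds differ. The median gene lay at −0.13 (daunorubicin minus doxorubicin, log2), and 46.9% of the differing genes were higher with daunorubicin, a share of 68% under RLE scaling. ERCC scaling moved the median to −1.48 and the calls to 28 higher and 2977 lower. Without the plate term 285 genes differed, by DESeq2 292, and without 1 of the 4 wells 276 to 517.

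Genes lower with daunorubicin included several at or above their DMSO level with doxorubicin. TRIM56, a ubiquitin ligase of antiviral defence, was at 4.3 and 0 CPM with daunorubicin, 83 and 55.7 with doxorubicin and 23.7 to 37.3 in DMSO, with the 3 groups apart. Its daunorubicin wells held 3 counts against 200, a ratio of 25.3 (95% counting interval 8.54 to 124) and a difference of −4.63 ± 0.78 (adjusted p = 1.45e-05). C11orf49, a regulator of the tubulin polyglutamylase complex, held 1 count against 124, a ratio of 47.1 (8.3 to 1870; adjusted p = 9.84e-05), with the doxorubicin wells at 44.4 and 40.8 CPM and DMSO at 28.3 to 41.9. DDX19B, an RNA helicase of mRNA export, was at 2.87 and 7.31 CPM with daunorubicin and 57.5 and 62.2 with doxorubicin, where DMSO gave 46.7 to 68.8, a difference of −3.72 ± 0.61 (adjusted p = 7.48e-06). VPS29, a retromer subunit that sorts endosomal cargo, was at 7.16 and 4.87 against 94.7 and 44.7 CPM, with DMSO at 21.3 to 83.1, a difference of −3.52 ± 0.53 (adjusted p = 8.61e-07). For these 4 genes the daunorubicin wells lay below the DMSO range.

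CCL2 was also lower with daunorubicin than with doxorubicin. It held 3 counts against 151, a ratio of 19.1 (6.42 to 93.7) and a difference of −4.22 ± 0.86 (adjusted p = 0.000352, without the daunorubicin well of plate 1 −3.50 and 0.068). NFKBIA, the inhibitor that NF-kB induces, named after its values were seen, was at 30.1 and 7.31 CPM with daunorubicin, 96.1 and 47.9 with doxorubicin and 28.4 to 104 in DMSO. It differed by −1.86 ± 0.47 (adjusted p = 0.00667; without either daunorubicin well 0.0703 and 0.0716, without the plate term 0.259, by DESeq2 0.0663). RPS27L differed by −2.23 ± 0.33 (95% interval −2.88 to −1.58, adjusted p = 5.5e-07).

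Of the genes higher with daunorubicin, LSMEM1, a small membrane protein, was at 38.7 and 73.1 CPM with daunorubicin, 0 and 7.12 with doxorubicin and 0.883 to 5.48 in DMSO, a difference of 3.89 ± 0.71 (adjusted p = 4.9e-05, by DESeq2 0.108). ZNF267, a zinc-finger protein, was at 45.9 and 34.1, then 0.728 and 4.53, then 1.73 to 5.73 CPM, a difference of 3.91 ± 0.76 (adjusted p = 0.000203). DPF3, a reader subunit of the BAF chromatin remodelling complex, was at 21.5 and 39, then 0 and 3.24, then 0.766 to 5.48 CPM, a difference of 4.06 ± 0.89 (adjusted p = 0.00106). In these 3 genes the daunorubicin wells were above all DMSO wells. The doxorubicin well of plate 1 lay below the DMSO range in each. The doxorubicin well of plate 2 lay within the range for ZNF267 and DPF3 and above it for LSMEM1. FOSB had 40 counts against 2, a ratio of 52.7 (13.7 to 450) and a difference of 5.62 ± 1.06 (adjusted p = 0.000213). PCAT6 differed by 3.99 ± 0.44 (95% interval 3.11 to 4.87, adjusted p = 1.23e-11), C9orf152 by 3.33 ± 0.52 (adjusted p = 2.58e-06), LTB4R by 3.25 ± 0.51 (adjusted p = 1.09e-06) and HNRNPDL by 2.66 ± 0.54 (adjusted p = 0.000352, without the plate term 0.0762). In the older quasi-likelihood method C9orf152 and LTB4R had an adjusted p of 0.138 and 0.0631, and FOSB 0.0608.

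**Figure D4:**
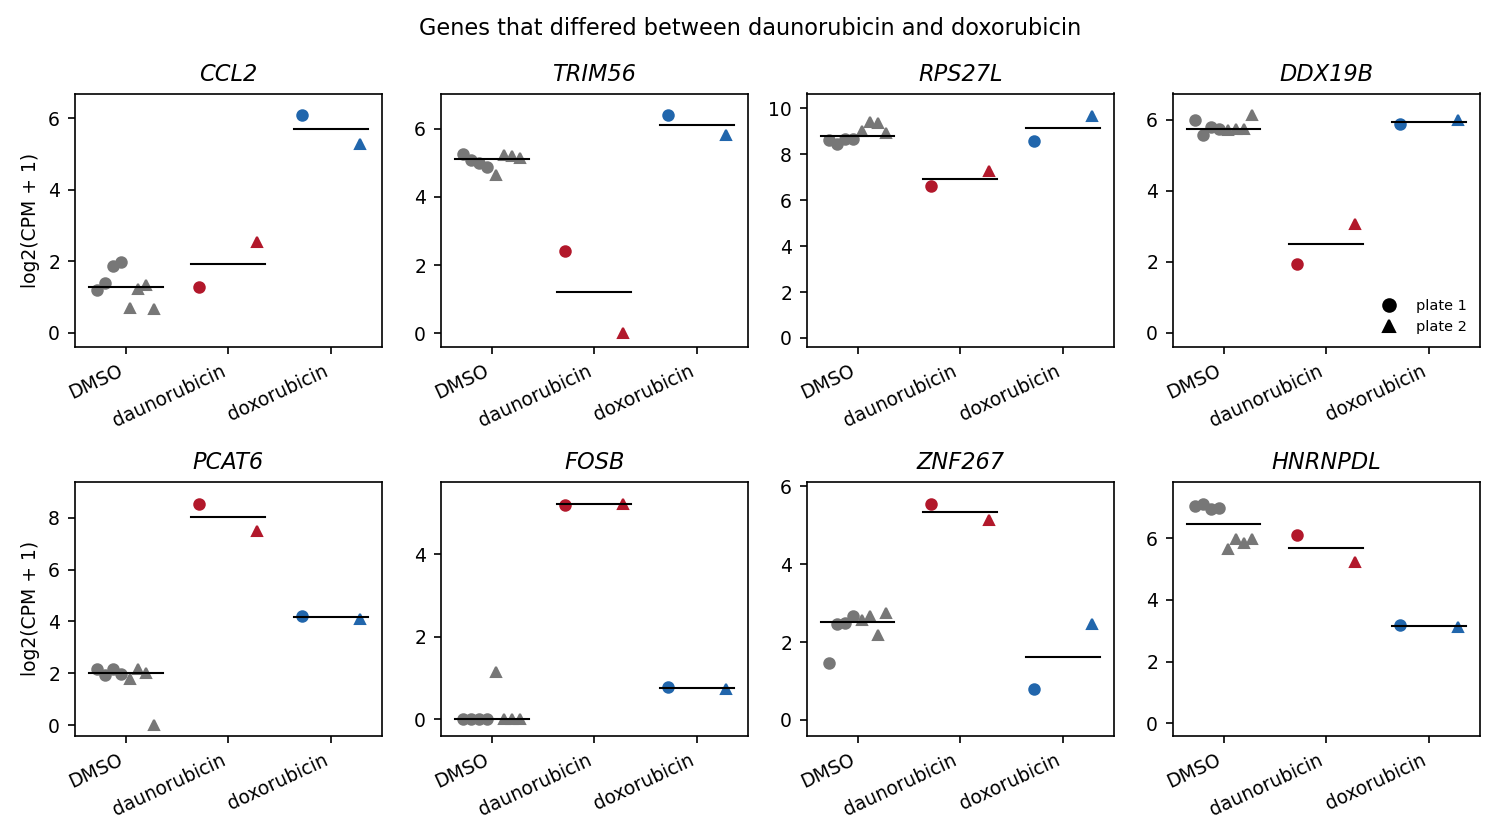
log2(CPM + 1) of 8 genes that differed between the compounds, in the DMSO, daunorubicin and doxorubicin wells, with 1 point a well, the plate shown by the symbol, and a line at the DMSO median or the compound mean. In the upper panels (CCL2, TRIM56, RPS27L, DDX19B) both daunorubicin wells lie below both doxorubicin wells, and in the lower panels (PCAT6, FOSB, ZNF267, HNRNPDL) above them.

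Smaller differences lost their call in some alternatives. Leaving out 1 well of a compound leaves a single well to estimate it, so a lost call need not mean that the difference rested on that well. Without the daunorubicin well of plate 1 or 2 the CCNB1 difference was −2.83 and −1.15, and without either doxorubicin well −1.41 and −1.53. CCNB1 differed by −1.46 ± 0.42 (95% interval −2.29 to −0.62, adjusted p = 0.0234), and the adjusted p was 0.0578 and 0.167 without the daunorubicin well of plate 1 or 2, 0.0783 and 0.0504 without the doxorubicin well of plate 1 or 2, 0.354 without the plate term, 0.0556 under RLE scaling and 0.206 by DESeq2. HAND1 differed by −1.46 ± 0.32 (−2.09 to −0.83, adjusted p = 0.00118), with −1.09 (adjusted p = 0.126) without the daunorubicin well of plate 1 and an adjusted p of 0.221 without the plate term. PTTG1 differed by −0.91 ± 0.26 (adjusted p = 0.0209; 0.0912, 0.146 and 0.346 without the daunorubicin wells or the doxorubicin well of plate 2, 0.301 without the plate term). RRM2 differed by −1.72 ± 0.47 (adjusted p = 0.0137; 0.204, 0.056 and 0.0696 without the same wells). KLF7 differed by 2.19 ± 0.55 (adjusted p = 0.00645), with 1.71 (0.114) without the doxorubicin well of plate 1 and 1.83 (0.109) without the daunorubicin well of plate 2. KLF6 differed by 1.17 ± 0.29 (adjusted p = 0.00607), with an adjusted p of 0.138 without the daunorubicin well of plate 1, 0.0553 and 0.0578 without either doxorubicin well and 0.354 without the plate term, and a value of −0.27 with ERCC scaling. COL1A1 differed by 0.99 ± 0.29 (adjusted p = 0.0249; 0.271 without the doxorubicin well of plate 1, 0.0912 and 0.131 without either daunorubicin well, 0.072 without the plate term), and by −0.43 with ERCC scaling.

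Many shared responses did not differ past the threshold, which does not show that the compounds act alike. The interval of the difference in DDIT3 was −0.14 to 1.20 (0.53 ± 0.34, adjusted p = 0.401) and in ATF3 0.31 to 1.96 (1.14 ± 0.42, adjusted p = 0.0897, and 0.0422 under RLE scaling). It was −0.65 to 0.55 in PLK1, −2.28 to −0.24 in CCNB2, −1.28 to 0.02 in TOP2A and −1.46 to 0.85 in CDKN1A. In MYCN it was −0.77 to 2.34, in NBN −0.48 to 1.79, in HEXIM1 −0.42 to 1.70, in LARP7 −1.16 to 0.32 and in TBX2 −0.81 to 0.25. WAS gave −0.66 to 1.08 and HLA-E −1.39 to 0.37, IRF1 −0.93 to 1.77, CBR3 −0.65 to 1.38, POR −0.98 to 0.13 and NDRG1 0.12 to 2.11 (adjusted p = 0.188, and 0.0236 without the doxorubicin well of plate 2). By lists, 3 of 30 G2 and mitosis genes and 3 of 25 S phase genes were lower with daunorubicin. So were 3 of 13 NF-kB and interferon genes, and 2 of 20 immediate early genes were higher. Over all genes 2.81% were lower and 2.48% higher. None of the 27 ATF4 genes and none of the 8 topoisomerase genes passed. Under ERCC scaling 14 G2 and mitosis, 13 S phase, 5 ATF4 and 2 topoisomerase genes were lower with daunorubicin. No G2 and mitosis gene passed without the daunorubicin well of plate 1, that of plate 2 or the doxorubicin well of plate 2. No S phase gene passed without the first or the last of these wells, and no NF-kB and interferon gene without the first.

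Teniposide, an epipodophyllotoxin that does not intercalate, and amsacrine, an acridine that does, also trap topoisomerase II. Against DMSO, 7.63% of genes passed with teniposide and 1.99% with amsacrine. The mean of the anthracyclines differed from the mean of these compounds in 17.9% of genes, 1088 higher (8.1%) and 1316 lower (9.79%), and 64.5% of the calls were higher under RLE scaling where 45.3% were before. Without the plate term 1481 genes differed, and without the daunorubicin well of plate 1 1175. WAS, at 4.12 and 0.882 CPM with teniposide and 3.99 and 3.09 with amsacrine, was higher with the anthracyclines by 4.52 ± 0.44 (adjusted p = 2.2e-16). PCAT6, at 4.7 and 9.7 and at 2.54 and 1.85 CPM, was higher by 4.12 ± 0.45 (adjusted p = 1.66e-13), and C9orf152 by 6.65 ± 0.81 (adjusted p = 1.5e-10). CXCR4, the receptor of the chemokine CXCL12, was at 84.5 and 90.2 CPM with daunorubicin, 8.01 and 33 with doxorubicin, 2.35 and 1.76 with teniposide and 1.09 and 0 with amsacrine, where DMSO gave 3.06 to 10.2. The anthracycline mean was higher by 5.02 ± 0.56 (adjusted p = 1.41e-12).

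SEPT4, a septin that can promote apoptosis, was at 78.8 and 39 CPM with daunorubicin and 8.01 and 24.6 with doxorubicin, at most 3.99 CPM in the teniposide and amsacrine wells, and higher by 4.49 ± 0.67 (adjusted p = 4.57e-08). SRD5A3-AS1 was higher by 4.67 ± 0.65 (adjusted p = 4.31e-09); it is an antisense gene, and since the handling of strand is not given, its reads cannot be told apart from those of its partner. Lower with the anthracyclines were APOBEC3C, a cytidine deaminase (−4.52 ± 0.58, adjusted p = 6.74e-10), GPSM1, a regulator of G protein signalling (−3.34 ± 0.53, adjusted p = 5.3e-07), DUSP8, a phosphatase of JNK and p38 (−3.28 ± 0.45, adjusted p = 8.56e-09), HARS2, the mitochondrial histidine tRNA ligase (−3.16 ± 0.42, adjusted p = 2.71e-09), and ZFP82 (−3.49 ± 0.57, adjusted p = 9.36e-07). LRRC4B, a synaptic adhesion protein, had no count with daunorubicin, 2.18 and 8.42 CPM with doxorubicin, 38.2 and 59.9 with teniposide and 20.7 and 13 with amsacrine (adjusted p = 3.14e-05).

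Of the genes given first, ATF3 was higher with the anthracyclines than with teniposide (4.7 and 18.5 CPM) and amsacrine (12 and 14.2 CPM) by 2.08 (adjusted p = 3.53e-07). DDIT3 was higher by 1.52 (adjusted p = 7.71e-07), with teniposide at 51.2 and 111 CPM and amsacrine at 50.1 and 90.2. CCNB1 differed by −1.09 (adjusted p = 0.000736), with teniposide at 74.7 and 35.3 CPM and amsacrine at 79.9 and 55.6; without the plate term its adjusted p was 0.138. HAND1 differed by −0.90 (adjusted p = 0.00093, without the plate term 0.202, without the amsacrine well of plate 1 −0.59 and 0.0637). CDKN1A stood at 34.1 and 65.2 CPM with teniposide and at 30.1 and 43.9 with amsacrine, and rose with each by 2.59 (adjusted p = 1.39e-07) and 2.21 (adjusted p = 1.77e-05) over DMSO, so its level with these compounds overlapped that with doxorubicin.

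Against the mean of the other 88 compounds 31.8% of genes differed, 2378 higher (17.7%) and 1894 lower (14.1%). The higher share of these calls was 55.7%, and 71.6% under RLE scaling; ERCC scaling gave 831 higher and 5989 lower, and without the daunorubicin well of plate 1 2492 genes differed. The anthracyclines were higher in WAS by 5.19 ± 0.27 (adjusted p = 6.21e-42), in C9orf152 by 6.82 (adjusted p = 2.19e-23), in SEPT4 by 5.96 (adjusted p = 4.4e-26), in ATF3 by 2.88 (adjusted p = 6.88e-22) and in DDIT3 by 2.12 (adjusted p = 1.11e-23). COIL differed by −3.06 (adjusted p = 4.44e-11), ANKRD1 by −3.49 (adjusted p = 3.99e-07), KAZN by −3.72 (adjusted p = 2.59e-05), CCNB1 by −1.70 (adjusted p = 1.03e-11) and HAND1 by −0.89 (adjusted p = 5.7e-06). By mean CPM over the 2 wells, daunorubicin had the lowest CCNB1 of the 90 compounds (16.1, median of the compounds 93.1) and doxorubicin the 4th lowest (47.8). Daunorubicin had the highest ATF3 (72.2, median 6.35) and doxorubicin the 5th highest (34.3). For HAND1 they ranked 2nd and 26th from the lowest, and for DDIT3 4th and 11th from the highest. These ranks are a description of 2 wells a compound.

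The genes that rose differed in length from those that fell. Of the 13438 tested genes 11972 had a single match in GENCODE v29 and were split by genomic span into 5 bins, from 0.059 to 10.1 kb for the shortest and 100 to 2300 kb for the longest. The share that rose with daunorubicin was 16.2% in the shortest and 6.72% in the longest bin, and with doxorubicin 15.7% and 4.89%. The share that fell went from 10.2% to 13% and from 8.6% to 14.8%. The median log2 difference went from −0.07 to −0.53 with daunorubicin and from 0.09 to −0.39 with doxorubicin. The order of the shortest and longest bins was kept by the medians under RLE scaling (0.32 and −0.12, then 0.32 and −0.16) and ERCC scaling (−1.88 and −2.43, then −0.35 and −0.87). Teniposide went from 0.12 to −0.49, amsacrine from 0.06 to −0.17 and dactinomycin, an intercalator that blocks RNA polymerase and was labelled at another concentration, from −0.01 to −1.72; 10.8% of genes passed with dactinomycin. Without the daunorubicin well of plate 1 the share that fell with daunorubicin was 4.51% and 3.67%, and the share that rose 6.3% and 3.38%. Among protein-coding genes of 30 CPM or more in DMSO, 15% rose in the shortest and 4.24% in the longest bin with daunorubicin (fell 26.8% and 35.2%), and 14.3% and 2.12% with doxorubicin (fell 20.9% and 35.7%). Of the genes above, CCL2 spans 1.99 kb, DDIT3 5.15 kb, CCNB1 11.2 kb, ATF3 55.4 kb and TOP2B 67 kb.

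**Figure D5:**
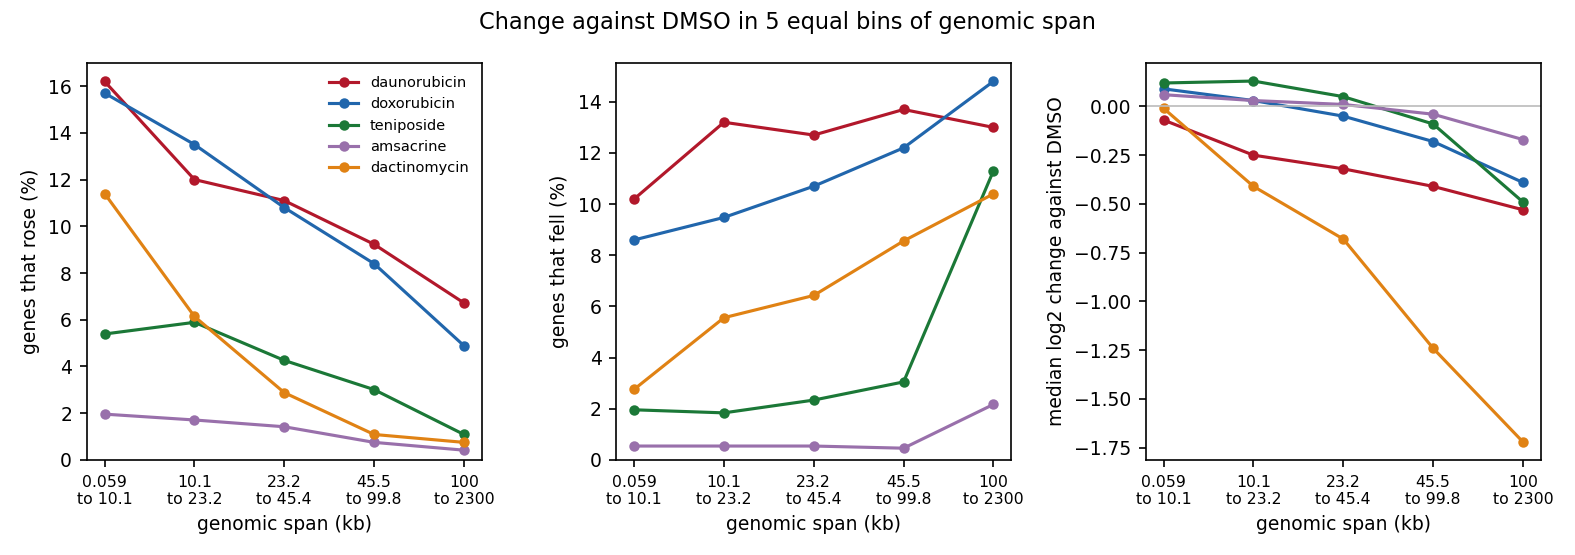
Percent of genes risen and fallen, and median log2 difference, in 5 bins of genomic span (kb), for daunorubicin, doxorubicin, teniposide, amsacrine and dactinomycin against DMSO. The share of genes risen is lowest in the bin of the longest genes for both anthracyclines, 6.72% and 4.89%.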

How the data were processed

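RNA from the SK-N-BE(2) wells of the first experiment was analysed as whole-number counts per gene symbol, as the authors deposited them: 44267 genes and 92 ERCC spike-in rows, which were left out of library sizes and tests. Per the submitters' processing notes the authors used STAR and GRCh38, with no versions; the read counter, annotation, strand setting and filters are not given in the sources used here. Totals ran from 398811 to 2607422 counts in the anthracycline and DMSO libraries, and counting intervals cover counting error only.

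Samples were grouped by their labels. The filter filterByExpr (minimum count 10) left 13438 genes, which were scaled by TMM and fitted over all libraries of the experiment with group and plate as terms by edgeR 4.0.16 (glmQLFit, glmQLFTest, two-sided) in R 4.3.3 with limma 3.58.1. The threshold was an adjusted p of 0.05 (Benjamini-Hochberg over all genes of a comparison). CPM use the scaled library sizes. The plate number in the labels pairs the wells: plate differences correlated at 0.47 between daunorubicin and DMSO wells, 0.698 between doxorubicin and DMSO and 0.258 between the compounds, over 3731 genes. The wells of 1 compound correlated at 0.794 (daunorubicin) and 0.862 (doxorubicin), DMSO wells at 0.835 to 0.957. No 2 of the compared libraries held identical values.

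Named genes were, by rule, the largest rises and falls past the threshold with wells apart from the comparison wells and a mean of 30 CPM in a group, up to 4 genes of each list by smallest p, and CCNB1, ATF3, HAND1, DDIT3, TOP2A, TOP2B, MYCN, CDKN1A and MDM2; the text gives a selection of them, and list members named without values are those that passed, named after their values were seen. The members, the 22 gene lists and the tests were chosen with earlier results of these data known. Alternatives were RLE scaling, ERCC scaling, no filter, the older quasi-likelihood method, no plate term, DESeq2 1.42.0, fewer libraries, pooled control wells, thinned libraries and leaving out each well; in several of them the plate effect and dispersion were held at the values of the full fit. The procedure was tested on simulated data. A few list members count in their lists but are not reported here by name.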

Additional observations from a re-analysis of the deposited data

Results flagged for a closer look

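Some values of single control wells stood far from the other 7 DMSO wells. Of 70 named genes checked, 8 had such a well (11.4%). The check flags about 1 in 20 where values are normally distributed, and CPM of few counts need not be. FOSB, for example, held 2 counts over the 8 DMSO wells. The share can therefore not be set against chance. The high wells were 1.22 CPM for FOSB, 9.17 for NFKB2, 87 for DHCR7, 111 for KAZN, 16.9 for LUM, 2.17 for SRD5A3-AS1 and 31 for LRRC4B, and the low well was 0 for PCAT6. The cause was not tested.

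The 22 named genes that differed between the compounds by the test of the difference were marked for a closer look, in log2 units of daunorubicin minus doxorubicin. Lower with daunorubicin were C11orf49 (−5.44), TRIM56 (−4.63), CCL2 (−4.22), DDX19B (−3.72), VPS29 (−3.52), RPS27L (−2.23), NFKBIA (−1.86), RRM2 (−1.72), CCNB1 (−1.46), HAND1 (−1.46) and PTTG1 (−0.91). Higher were FOSB (5.62), DPF3 (4.06), PCAT6 (3.99), ZNF267 (3.91), LSMEM1 (3.89), C9orf152 (3.33), LTB4R (3.25), HNRNPDL (2.66), KLF7 (2.19), KLF6 (1.17) and COL1A1 (0.99). The daunorubicin libraries were also shallower than the doxorubicin libraries, and the part of depth in these differences was measured only by thinning.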

How the results depend on the processing

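RLE scaling, no filter and the older quasi-likelihood method left each of the 5 counts of called genes within 1.5 times its value. ERCC scaling, in the spiked wells, gave 6789 genes with daunorubicin, 1094 with doxorubicin, 3005 between the compounds and 6820 against the other compounds, of which 831 were higher; the same wells under TMM gave 1694 with doxorubicin. Scaling by ERCC reversed the daunorubicin differences of CDKN1A (−0.28), KLF7 (−1.34), CBR3 (−0.73), POR (−1.47), MDM2 (−2.07), LUM (−0.05), MYCN (−0.20) and CCL2 (−1.55), of which KLF7, MDM2, MYCN and CCL2 had not passed the threshold, and the difference between the compounds in KLF6 (−0.27) and COL1A1 (−0.43); other named differences that had not passed also turned sign. With no plate block, the pairing by plate being dropped, the counts were 1772 with doxorubicin, 285 between the compounds and 1481 against teniposide and amsacrine. Thinning the compared libraries to the shallowest, chosen after seeing the data, gave 837, 251 and 890 for the same comparisons. DESeq2 gave 292 between the compounds and a fit of only the compared libraries 173. Leaving out 1 well gave 1298 to 3220 with daunorubicin, 1093 to 2939 with doxorubicin, 276 to 517 between the compounds, 1175 to 2145 against teniposide and amsacrine and 2492 to 3666 against the other compounds. The lone well of a compound is then assumed to vary like the other groups. DESeq2 and a fit of only the compared libraries were not run against the other 88 compounds, and ERCC scaling gave no value against teniposide and amsacrine because the teniposide wells were not spiked. The replicate block changed other calls as stated beside the genes. The cause of these changes was not tested. At these depths a gene of a few CPM in DMSO gives almost no counts in the daunorubicin wells, so falls of such genes were not detectable.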

Other observations

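Noncoding genes rose more often than protein-coding genes with each anthracycline. Of 222 antisense genes 48 rose with daunorubicin (21.6%) and 64 with doxorubicin (28.8%), and 5 fell with each (2.25%). Of 11414 protein-coding genes 10.7% and 10.1% rose and 13.1% and 11.5% fell. Long intergenic RNAs rose in 21.1% and 20.4% of cases. With teniposide 6.31% of antisense and 3.84% of protein-coding genes rose. These classes differ in level and length, both comparisons share the DMSO wells, and reads of an antisense gene and its partner cannot be told apart where strand handling is not given.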
